A study of Mus musculus with 36 samples.

Results

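The 9 genes described here handle iron in mammalian cells: the ferritin receptor *Scara5*, the transferrin receptor *Tfrc*, the transporters *Slc11a2*, *Slc39a14* and *Slc40a1*, the metalloreductase *Steap4*, the ferritin chains *Fth1* and *Ftl1*, and the regulatory protein *Ireb2*. They were taken by symbol from the 53421 gene rows of a mouse RNA-seq time course, and all 9 were found. The list is one of names drawn up with results of these data in view, and it is not known on which measured values, IFT88siRNA against NT or IL-1β against 0 h, the leading gene *Scara5* was selected, so *Scara5* is described below without a test. The other members may have been chosen by their levels too, and nothing rests on how many of them changed. The cells were wild type, of a conditionally immortalised mouse line of fibroblastic chondrocytes, and had been transfected with a pool of non-targeting siRNA (NT) or with a pool of siRNA against *Ift88* (IFT88siRNA), the labels giving 50 nM of either and the methods a lower concentration. *Ift88* encodes a component of intraflagellar transport, which builds and maintains the cilium. Each siRNA group was sampled at 0 h, before IL-1β, a cytokine that drives inflammatory gene expression, was added at 10 ng/ml, and again 1, 2, 4, 8 or 24 h later. There were 3 libraries for each of the 12 conditions and 36 in all. The labels do not say that replicates came from separate cultures, so the p-values measure only the spread between these libraries, which may be technical. The libraries without IL-1β are all from 0 h, so the effect of the cytokine and that of time in culture cannot be told apart.

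Cells take up iron bound to transferrin through the transferrin receptor, and iron that is not bound to transferrin through transporters that need it reduced first. Iron that is not used is stored inside shells made of heavy and light ferritin chains or leaves through ferroportin. Iron-regulatory proteins, of which *Ireb2* encodes one, bind a hairpin called the iron-responsive element (IRE) when iron is scarce: in a 5′ UTR this blocks translation, and in the 3′ UTR of the transferrin receptor it protects the transcript. In inflammation, iron is withdrawn from the circulation into cells, and ferritin heavy chain and lipocalin 2 are classic targets of NFκB.

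Each library had from 19337022 to 38304127 counts in genes (medians of 21672803.5 in NT and 25873754 in IFT88siRNA). Levels are given below as CPM, counts scaled to the library total with TMM factors over the 36 libraries, and as the deposited TPM, which also allow for transcript length, where genes are compared with each other. A gene was called changed where the quasi-likelihood test of edgeR gave an adjusted p under 0.05 (Benjamini-Hochberg, over all genes tested) and the change was over 1.5-fold, and these are the thresholds meant below. Errors of log2 fold changes are standard errors of that fit. *Ift88*, which the siRNA targets, was at 9.09, 8.60 and 9.31 CPM in the NT libraries at 0 h and at 2.57, 2.88 and 2.81 CPM in the IFT88siRNA libraries, and the groups did not overlap at any of the 6 time points. Of 8 fibroblast markers, 8 had a median of at least 1 TPM. Of 8 chondrocyte markers, 5 did, with *Sox9* at 5.98 to 34.5 TPM and *Col2a1* at 1.43 to 9.05 TPM, whereas *Acan* reached 0.206 TPM at most, *Matn3* 0.452 and *Col9a1* 0.106, so that part of the chondrocyte programme was at or near 0 in these cells. Of 8 macrophage markers, 2 reached that median (*Cd68* and *Lyz2*), and the summed level of all 8 was between 7.73 and 15.7 TPM in NT and between 7.36 and 13.8 TPM in IFT88siRNA. None of 4 endothelial and 1 of 4 erythroid markers (*Hba-a1*, which had at most 9 counts in a library) did.

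A hairpin of the IRE form described next was found in some members and not in others. These hairpins are shown because IREs are what the iron-regulatory proteins bind. The GENCODE transcripts of 21877 protein-coding genes (GRCm38) were searched, on the strand of the transcript, for a C followed by 5 bases, the hexaloop CAGTGN and 5 more bases that pair with the first 5, G with T taken as a pair. Of the genes, 294 (1.34%) held such a hairpin, and of the 9 members 4 did: *Fth1*, *Ftl1* and *Slc40a1* with 1 each in the 5′ UTR, and *Tfrc* with 4 in the 3′ UTR. They are written 5′ to 3′ on the strand of the gene, with the bulged C and the hexaloop in capitals.
*Fth1* 5′ UTR, chr19:9982732-9982761: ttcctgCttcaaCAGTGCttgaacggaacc
*Ftl1* 5′ UTR, chr7:45459778-45459807: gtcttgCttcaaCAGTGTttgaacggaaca
*Slc40a1* 5′ UTR, chr1:45925464-45925493: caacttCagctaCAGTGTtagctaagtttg
*Tfrc* 3′ UTR, the first of 4, chr16:32631219-32631248: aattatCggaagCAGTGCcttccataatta
*Tfrc* 3′ UTR, the second of 4, chr16:32631598-32631627: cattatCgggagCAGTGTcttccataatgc
*Tfrc* 3′ UTR, the third of 4, chr16:32631663-32631692: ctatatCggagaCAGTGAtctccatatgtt
*Tfrc* 3′ UTR, the fourth of 4, chr16:32631710-32631739: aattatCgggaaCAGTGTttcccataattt
*Fth1* and *Ftl1* shared the letters of both 5-base arms of the stem, which differ from those of *Slc40a1* and *Tfrc*. In *Scara5*, *Steap4*, *Ireb2*, *Slc39a14* and *Slc11a2* these letters with this pairing were not found. The search covered this form only, so it does not show that these members lack an IRE or that *Tfrc* has no others.

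*Steap4*, the member with the largest change after IL-1β, is on the + strand (ENSMUSG00000012428, chr5:7960457-7982213), and the bases upstream of its RefSeq start (GRCm38.p6) are shown for that reason. The motif GGGANNNNCC, a form of the NFκB site, was looked for on both strands in windows from 250 bases before to 50 after a gene's start. Windows were at hand for 5 members. The motif occurred in 6810 of all 32851 windows (20.7%), and in 3 of the 7 windows of *Tfrc*, *Steap4*, *Fth1*, *Ftl1* and *Ireb2*. Of these, the *Steap4* window held 2 matches, which began 250 and 73 bases before the start, and the second window of *Fth1* and the window of *Ireb2* held 1 each. The matches are in capitals in the 235 bases that precede the annotated transcript.
*Steap4*, chr5:7960222-7960456: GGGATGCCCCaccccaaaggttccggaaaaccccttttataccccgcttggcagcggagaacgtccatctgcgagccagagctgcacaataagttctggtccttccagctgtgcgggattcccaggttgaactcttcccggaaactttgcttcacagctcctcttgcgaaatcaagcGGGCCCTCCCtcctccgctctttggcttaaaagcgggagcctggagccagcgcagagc
A match to a motif this common is a description of the letters and not of binding.

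In TPM, which is per length, the NT libraries at 0 h ranked the members as *Fth1* (2522 ± 26.6), *Ftl1* (2139 ± 68.2), *Slc39a14* (57.5 ± 0.276), *Ireb2* (50.3 ± 2.68), *Tfrc* (47.9 ± 2.101), *Slc11a2* (33.6 ± 2.64), *Scara5* (3.36 ± 0.299), *Slc40a1* (0.876 ± 0.0405) and *Steap4* (0.497 ± 0.0608; SD, n = 3). Ferritin transcripts thus stood far above the rest, and *Ireb2* and *Tfrc*, which are neighbours in this order, did not differ beyond their spread. After 24 h with IL-1β the NT order was *Fth1* (13789.8 ± 728), *Ftl1* (1728 ± 46.6), *Slc39a14* (168 ± 9.46), *Slc11a2* (154 ± 0.985), *Tfrc* (145 ± 3.38), *Steap4* (50.2 ± 2.79), *Ireb2* (49.2 ± 0.375), *Scara5* (11.6 ± 0.824) and *Slc40a1* (0.174 ± 0.0520 TPM; SD, n = 3). *Steap4* and *Ireb2* were then within their spread of each other, although *Steap4* had been the lowest of the 9 in NT by TPM at 0 h. That place rests on few counts and on the measure. *Slc40a1* had 3 to 12 counts per library there (mean 0.307 CPM) and *Steap4* 17 to 22 (mean 0.816 CPM). In IFT88siRNA at 0 h, *Slc40a1* (0.248 ± 0.0831 TPM) was below *Steap4* (1.203 ± 0.177 TPM; SD, n = 3).

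**Figure D1:**
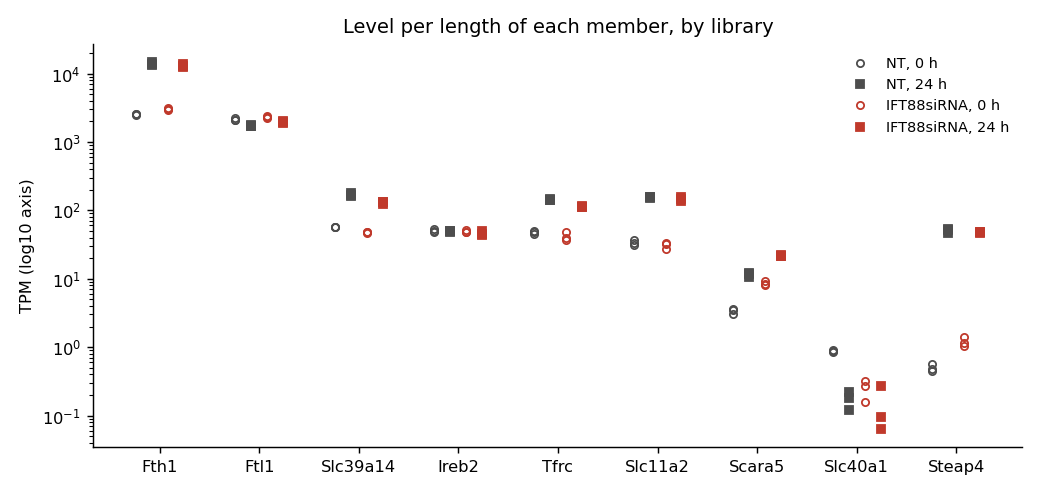
TPM of the 9 members (log10 axis) in each library of NT (grey) and IFT88siRNA (red) at 0 h (open circles) and 24 h (filled squares), ordered by the NT mean at 0 h. *Steap4* rose from the lowest place by TPM (though not by counts), at 0.497 TPM, to 50.2 TPM in NT, while *Ireb2* was at 46.4 to 50.3 TPM on average in all 4 conditions shown.

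*Scara5* (ENSMUSG00000022032, chr14:65666403-65764826, + strand) encodes a class A scavenger receptor that binds ferritin light chain and brings ferritin iron into the cell. It was higher in IFT88siRNA than in NT at each of the 6 time points, and higher after IL-1β than at 0 h at 1, 2, 8 and 24 h in both groups. At 0 h the NT libraries had 6.83, 6.84 and 5.65 CPM and the IFT88siRNA libraries 18.7, 17.9 and 16.7 CPM. After 1 h they had 15.9, 16.6 and 13.5 against 34.9, 35.2 and 32.8 CPM, and after 2 h 13.3, 19.9 and 14.4 against 31.7, 33.0 and 25.2 CPM. At 4 h both groups were lower again, with 10.1, 9.12 and 9.21 against 16.7, 19.6 and 14.0 CPM, which in NT was still above every 0 h library and in IFT88siRNA overlapped with the 0 h libraries. At 8 h the values were 16.7, 12.8 and 14.2 against 32.8, 45.2 and 25.4 CPM, and at 24 h 27.1, 26.6 and 23.7 against 46.9, 48.8 and 49.5 CPM. No NT library reached the lowest IFT88siRNA library of its own time point, and the IFT88siRNA libraries without IL-1β stood above the NT libraries that had had it for 4 h.

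**Figure D2:**
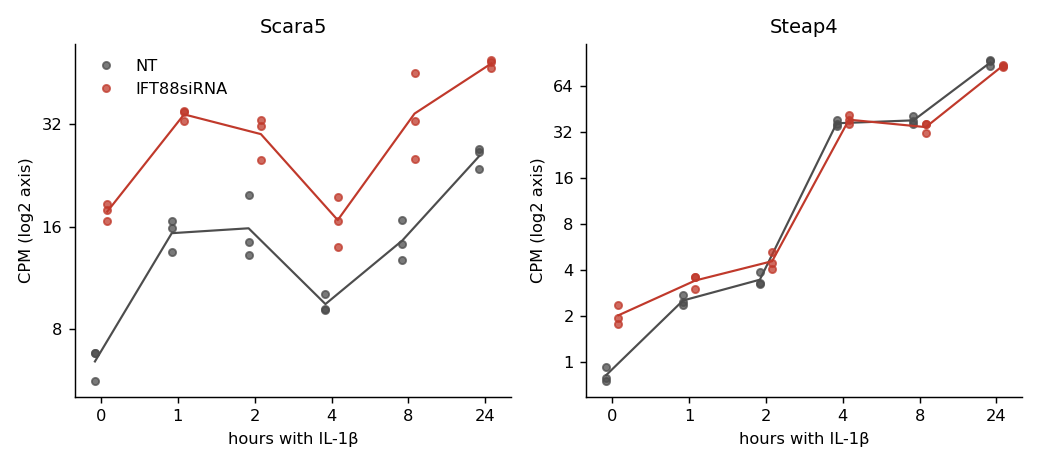
CPM (log2 axis) of *Scara5* and *Steap4* in each library (points) against hours with IL-1β, with lines through the mean of the 3 libraries of NT (grey) and IFT88siRNA (red). *Scara5* libraries of IFT88siRNA lie above those of NT at each time, whereas for *Steap4* the groups are apart at 0 h and run together from 4 h.

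As log2 fold changes of IFT88siRNA against NT, the *Scara5* differences were 1.46 ± 0.089 (SE, 3 against 3 libraries) at 0 h, 1.12 ± 0.073 at 1 h, 0.90 ± 0.13 at 2 h, 0.80 ± 0.11 at 4 h, 1.22 ± 0.17 at 8 h and 0.91 ± 0.062 at 24 h. By size, the difference at 0 h was 14th among the 15274 genes fitted at that time, and it was between 54th and 155th at the others. *Scara5* may have been selected on these same differences, so the ranks and errors are a description and not support. The spread was widest at 8 h, where the 3 IFT88siRNA libraries had 32.8, 45.2 and 25.4 CPM, and without replicate 2 the difference there was 0.90. From 0 h to the 5 later times, in order, the log2 change of *Scara5* was 1.25, 1.29, 0.58, 1.19 and 1.96 in NT and 0.91, 0.73, −0.082, 0.96 and 1.41 in IFT88siRNA. The time course thus had a first maximum at 1 to 2 h, a low at 4 h and its highest level at 24 h in both groups. In bulk RNA, fewer cells that make a transcript and less of it per cell cannot be told apart, for *Scara5* as for every gene below.

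*Tfrc* (ENSMUSG00000022797, chr16:32608920-32632794, + strand), the receptor for iron-loaded transferrin, rose late. In NT it was at 97.3, 106 and 106 CPM at 0 h, 132, 119 and 117 CPM at 8 h and 359, 371 and 352 CPM at 24 h. In IFT88siRNA it was at 77.6, 70.4 and 84.6 CPM at 0 h, 112, 114 and 108 CPM at 8 h and 258, 251 and 254 CPM at 24 h. At each time except 1 h the IFT88siRNA libraries lay below all NT libraries. The change from 0 h to 24 h was 1.76 ± 0.049 in NT (adjusted p = 1.54e-19) and 1.68 ± 0.053 in IFT88siRNA (adjusted p = 4.78e-18), and no earlier time reached 1.5-fold, with −0.14, 0.13, 0.059 and 0.27 in NT and 0.14, 0.36, 0.33 and 0.53 in IFT88siRNA. Without replicate 3 the 8 h change in IFT88siRNA passed both thresholds (0.61, adjusted p = 1.64e-07). On the TPM values the 1 h change in IFT88siRNA was −0.24 with limma (adjusted p = 0.0252), and the 4 h change in NT was −0.062 with upper-quartile scaling. Between the siRNA groups, the differences over the 6 times were −0.41, −0.14, −0.20, −0.14, −0.16 and −0.50. Those at 0 h (adjusted p = 9.98e-06) and 24 h (adjusted p = 7.04e-06) were larger than the replicate spread but below 1.5-fold, at 75.0% and 70.5% of NT. The smaller differences at 1 and 2 h had an adjusted p of 0.0323 and 0.0342.

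*Slc11a2* (ENSMUSG00000023030, chr15:100387898-100425072, − strand) encodes DMT1, which carries ferrous iron across membranes, and its time courses in the siRNA groups nearly coincided. At 0 h it had 54.6, 50.4 and 51.8 CPM in NT and 51.8, 51.7 and 52.4 CPM in IFT88siRNA, and at 4 h, where it was highest, 304, 299 and 294 and 312, 311 and 312 CPM. At 8 h it was lower, at 190.2, 197 and 197 and 192, 193 and 193 CPM. At 24 h the libraries were at 269, 274 and 279 and 273, 279 and 277 CPM. From 0 h the log2 changes in NT were 0.40, 1.21, 2.54, 1.91 and 2.35, of which those from 2 h on passed both thresholds (at 4 h, adjusted p = 1.5e-20). In IFT88siRNA they were 0.51, 1.22, 2.59, 1.89 and 2.38, with the same times past the thresholds. The 6 differences between the groups were between −0.039 and 0.092, none with an adjusted p below 0.149, and the 95% interval at 4 h ran from −0.054 to 0.13. An antisense gene, *Gm5475*, shares 402 of the 6354 exonic bases of *Slc11a2*, but had at most 31 counts in a library.

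*Slc39a14* (ENSMUSG00000022094, chr14:70303469-70351425, − strand), or ZIP14, takes up iron that is not bound to transferrin, along with zinc and manganese. It had 109, 107 and 108 CPM in NT and 93.7, 92.0 and 94.5 CPM in IFT88siRNA at 0 h. At 1 h the values were 90.0, 91.05 and 95.6 and 86.8, 84.0 and 81.7 CPM, and at 4 h 321, 341 and 307 and 296, 298 and 289.6 CPM. At 24 h they were 346, 358 and 367 and 273, 277 and 282 CPM. At each of the 6 times every IFT88siRNA library was below every NT library. *Slc39a14* rose from 4 h on, by 1.61, 1.42 and 1.68 on the log2 scale at 4, 8 and 24 h in NT (adjusted p = 7.32e-20, 2.09e-18 and 1.01e-19) and by 1.66, 1.36 and 1.53 in IFT88siRNA. The differences between the groups over the 6 times were −0.21, −0.18, −0.17, −0.16, −0.29 and −0.36, the last with an adjusted p of 9.02e-05, and none reached 1.5-fold.

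*Steap4* encodes a metalloreductase of membranes that reduces ferric iron and copper. It was among the most strongly changed genes of the time course, and at 0 h it was already higher in IFT88siRNA. The NT libraries had 0.921, 0.778 and 0.7502 CPM at 0 h, which was 22, 19 and 17 counts, and the IFT88siRNA libraries 1.92, 2.35 and 1.76 CPM, or 57, 67 and 50 counts. At 2 h the values were 3.21, 3.25 and 3.86 against 5.20, 4.03 and 4.40 CPM. At 4 h they were 36, 34.6 and 38.2 against 35.8, 41.1 and 37.9 CPM. At 24 h they were 92.1, 94.1 and 85.7 against 85.0, 87.3 and 86.0 CPM. The groups did not overlap at 0, 1 and 2 h, where IFT88siRNA was the higher, overlapped at 4 and 24 h, and at 8 h lay apart with IFT88siRNA the lower (35.7, 35.8 and 31.2 against 37.5, 35.9 and 40.4 CPM).

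In NT, *Steap4* rose from 0 h by 1.602, 2.06, 5.49, 5.54 and 6.74 on the log2 scale at the 5 later times, and in IFT88siRNA by 0.71, 1.16, 4.26, 4.09 and 5.38. All 10 changes passed both thresholds (at 24 h, 107-fold with adjusted p = 1.74e-24 in NT, and 41.7-fold with adjusted p = 7.82e-23 in IFT88siRNA). In IFT88siRNA the 1 h change was 0.58 without replicate 3, and 0.35 at 1 h and 0.56 at 2 h with limma on log2(TPM + 1), all under 1.5-fold. By size, the NT change at 24 h was 23rd of 16048 genes. The difference between the groups was 1.29 ± 0.21 at 0 h (adjusted p = 0.000153) and passed both thresholds at no other time, with 0.39, 0.38, 0.056, −0.17 and −0.074 in order of time. The response to IL-1β differed between the groups (5 terms together over 36 libraries, adjusted p = 7.6e-05), by −0.89, −0.90, −1.23, −1.45 and −1.36 in order of time. These 5 terms share the same 6 libraries at 0 h, where *Steap4* had 17 to 67 counts per library, and the levels of the groups from 4 h on were close to each other. On the deposited TPM values the 0 h difference was 0.56 on the log2(TPM + 1) scale with limma (adjusted p = 0.079) and 1.12 with a pseudocount of 0.1 (adjusted p = 0.111), which did not pass. In counts it passed without each replicate in turn, with adjusted p between 0.00115 and 0.00243.

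*Slc40a1* (ENSMUSG00000025993, chr1:45908068-45926523, − strand), which encodes ferroportin, the known exporter of iron, was close to absent. It had 12, 7 and 3 counts in the NT libraries at 0 h and 11, 5 and 7 in those of IFT88siRNA, and at 4 h 1, 1 and 2 and 2, 2 and 4. Over all 36 libraries it had between 1 and 12 counts, too few for the fits of the siRNA groups at each time and of the IFT88siRNA time course. In the NT time course, where it was tested, the change at 4 h was −2.09 ± 0.68 (95% interval −3.49 to −0.68, adjusted p = 0.0103), and the other times gave no call. Without replicate 1 it was −1.46 (adjusted p = 0.17) and without replicate 2 −1.90 (adjusted p = 0.0821). On the deposited TPM with no filter, limma gave other calls in NT, −0.69 at 2 h (adjusted p = 0.000802) and −0.68 at 24 h (adjusted p = 0.0019), and −0.45 and −0.56 at 1 and 8 h (adjusted p = 0.021 and 0.00587), where the count fit gave 0.18 and 0.40. The TPM at 0 h were 0.838, 0.870 and 0.918 in NT and 0.269, 0.318 and 0.156 in IFT88siRNA and did not overlap, whereas the counts did. With so few counts, and with counts and TPM apart, the data do not settle how *Slc40a1* changed.

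*Fth1* (ENSMUSG00000024661, chr19:9980598-9985098, + strand) encodes the heavy chain of ferritin, which oxidises iron for storage, and rose steadily with IL-1β. In NT it was at 942, 913 and 911 CPM at 0 h, 1421, 1434 and 1343 CPM at 1 h, 2024, 1979.7 and 2163 CPM at 4 h and 6058, 5418 and 5379.9 CPM at 24 h. In IFT88siRNA it was at 1095, 1229.7 and 1169, then 1704, 1745 and 1661, 2547, 2550.0 and 2185 and finally 5039, 5234 and 5928 CPM at the same times. The IFT88siRNA libraries were above the NT libraries from 0 to 4 h and overlapped with them at 8 and 24 h. From 0 h the log2 changes were 0.60, 0.65, 1.19, 1.57 and 2.57 in NT and 0.51, 0.55, 1.07, 1.33 and 2.18 in IFT88siRNA. In NT all 5 passed both thresholds (at 24 h, 5.92-fold, adjusted p = 3.38e-21), those at 1 and 2 h by little: without replicate 2 they were 0.58 and 0.58, under 1.5-fold. With upper-quartile scaling the 1 and 2 h changes in NT were 0.52 and 0.54, and with limma on log2(TPM + 1) 0.40 and 0.37, also under it. In IFT88siRNA the changes at 4, 8 and 24 h passed. Between the groups the differences over the 6 times were 0.33, 0.24, 0.23, 0.22, 0.079 and −0.058, the first with an adjusted p of 2.35e-06, and none reached 1.5-fold. The test of a different response gave an adjusted p of 0.0957.

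*Ftl1* (ENSMUSG00000050708, chr7:45457944-45459884, − strand) encodes the light chain, which helps the iron core to form and is the chain that *Scara5* binds. It followed another course than *Fth1*. In NT it was at 395, 396 and 419 CPM at 0 h, 615, 643 and 571 CPM at 2 h and 369.5, 371 and 365 CPM at 24 h. In IFT88siRNA it was at 438, 449 and 467 CPM at 0 h, 711, 711 and 643 CPM at 2 h and 409, 423 and 419 CPM at 24 h. The libraries were highest at 1 and 2 h in both groups and near or below their 0 h level from 8 h on. The log2 changes from 0 h were 0.53, 0.58, 0.081, −0.12 and −0.17 in NT, none of which reached 1.5-fold, and 0.65, 0.59, 0.12, −0.094 and −0.15 in IFT88siRNA, of which those at 1 h (adjusted p = 5.66e-09) and 2 h (adjusted p = 1.26e-08) passed. The 4 h change in NT turned to −0.041 with upper-quartile scaling and to −0.20 with limma on TPM (adjusted p = 0.000342). The rise in IFT88siRNA at 2 h stood at 1.503-fold, and at 0.55 without replicate 1 or 0.55 without replicate 2 it was under the threshold. The 1 h rise there was 0.57 with upper-quartile scaling and 0.50 with limma on TPM, also under it. In NT the 2 h change was also 1.498-fold, so that the groups fell on either side of the threshold with nearly equal values. It was past the threshold with DESeq2 (0.60), with its size factors in edgeR (0.60), with no filter on low counts (0.59) and without replicate 3 (0.65), as was the 1 h change in NT without replicate 3 (0.59). IFT88siRNA was above NT by 0.16, 0.27, 0.16, 0.20, 0.18 and 0.18 over the 6 times, none of which reached 1.5-fold (at 1 h, adjusted p = 0.000663).

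The ratio of *Fth1* to *Ftl1* transcripts, taken from TPM within each library, was 1.22, 1.196 and 1.12 in NT at 0 h, 2.47, 2.42 and 2.81 at 4 h, 3.72, 3.797 and 3.91 at 8 h and 8.51, 7.66 and 7.78 at 24 h. In IFT88siRNA it was 1.30, 1.38 and 1.30 at 0 h, 2.60, 2.65 and 2.53 at 4 h, 3.6, 3.76 and 3.42 at 8 h and 6.31, 6.42 and 7.09 at 24 h. Transcript levels of the chains were thus nearly equal up to 2 h, when NT had a mean ratio of 1.25 ± 0.0372 and IFT88siRNA one of 1.30 ± 0.0322 (SD, n = 3). At 24 h the mean transcript ratio was 7.98 ± 0.456 in NT and 6.60 ± 0.423 in IFT88siRNA. These are levels of RNA and do not give the ratio of the protein chains. The groups did not overlap at 0 h, where IFT88siRNA was the higher, or at 24 h, where NT was the higher. A ratio within a library shows unequal change of the transcripts and depends on how reads were shared with near copies of these genes. Of 14 such copies in the table, *Ftl1-ps1* had 143 to 349 counts per library and the others at most 23. *Gm10252*, which is antisense to *Ftl1* over 355 of its 1340 exonic bases, had 34 to 93. These are counts, and they do not show how reads were shared in the TPM behind the ratio.

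**Figure D3:**
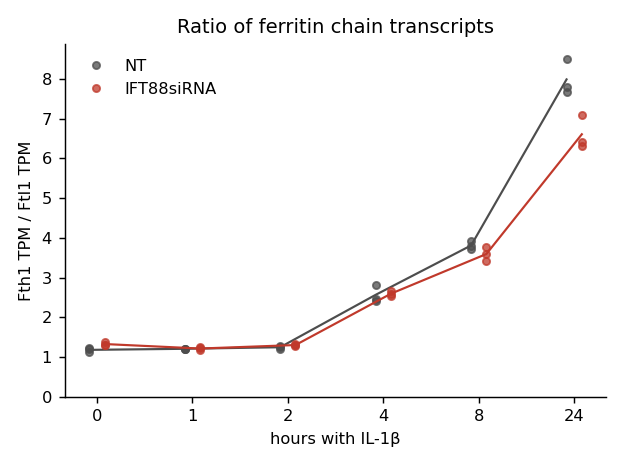
*Fth1* TPM divided by *Ftl1* TPM in each library (points) against hours with IL-1β, with lines through the means of NT (grey) and IFT88siRNA (red). The ratio is below 1.5 in every library up to 2 h and at 24 h lies between 7.66 and 8.51 in NT and between 6.31 and 7.09 in IFT88siRNA.

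*Ireb2* (ENSMUSG00000032293, chr9:54863789-54912530, + strand) encodes the iron-regulatory protein whose binding to IREs the hairpins above serve, and is itself controlled mainly by breakdown of the protein. Of the members tested in both IL-1β time courses, it changed least from 0 h. Its level was 139.5, 149 and 141 CPM in NT and 149, 136 and 141 CPM in IFT88siRNA at 0 h. It was highest at 2 h, with 167, 175 and 184 CPM in NT and 166, 179 and 176 CPM in IFT88siRNA, and over all 36 libraries it lay between 121 and 184 CPM. The log2 change from 0 h to 2 h was 0.28 ± 0.046 in NT (adjusted p = 1.1e-05) and 0.26 ± 0.052 in IFT88siRNA (adjusted p = 0.000112), under 1.5-fold in both. The groups differed by between −0.14 and 0.028 over the 6 times, with no adjusted p below 0.0899.

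Of the 8 members other than *Scara5*, 7 could be tested between the siRNA groups, and 1 of them (*Steap4*, at 0 h) passed both thresholds at 1 or more time points, where 5.34% of all genes tested did. *Tfrc*, *Fth1*, *Ftl1* and *Slc39a14* had an adjusted p under 0.05 at 1 or more times with differences below 1.5-fold. After IL-1β in NT, 6 of 8 passed at 1 or more times (*Fth1*, *Slc11a2*, *Slc39a14*, *Slc40a1*, *Steap4* and *Tfrc*), beside 50.7% of all genes. In IFT88siRNA, 6 of 7 passed (*Fth1*, *Ftl1*, *Slc11a2*, *Slc39a14*, *Steap4* and *Tfrc*), beside 49.2% of all genes. At 24 h the median log2 change was 1.72 over the 8 members tested in NT and 1.68 over the 7 tested in IFT88siRNA, which leave out *Slc40a1*. That of all genes was −0.019 and −0.010. These shares and medians are given beside the counts for reference. The members may have been chosen by their levels, so neither is support for a shared change.

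**Figure D4:**
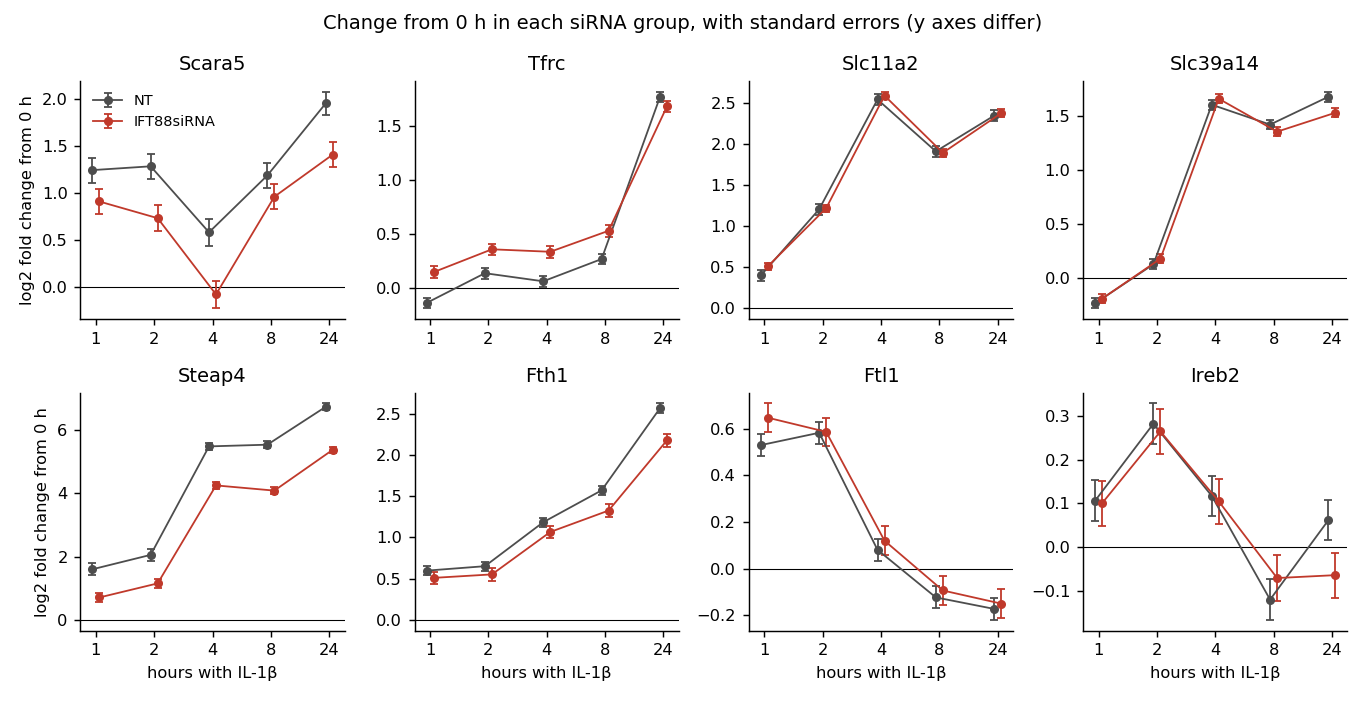
Log2 fold change from 0 h against hours with IL-1β in NT (grey) and IFT88siRNA (red) for the 8 members with enough counts, with bars of 1 standard error (18 libraries per fit, 3 per condition). The lines of *Slc11a2* nearly coincide, and *Steap4* in IFT88siRNA lies below NT at each time by between 0.89 and 1.45.

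The test of a different response to IL-1β in the siRNA groups asks whether the change from 0 h depends on the siRNA. Of the 8 members other than *Scara5*, 1 (*Steap4*) passed both thresholds, where 1.2% of 16710 genes did. *Tfrc* had an adjusted p of 0.000296 but no difference over 1.5-fold: its changes from 0 h were higher in IFT88siRNA by 0.29, 0.22, 0.28 and 0.27 at 1, 2, 4 and 8 h and differed by −0.086 at 24 h. On the deposited TPM values the largest of the 5 differences for *Tfrc* was −0.18, of the opposite sign, with an adjusted p of 0.679 with limma, and in counts without replicate 2 the adjusted p was 0.0528. *Slc39a14* had an adjusted p of 0.0678, *Fth1* one of 0.0957, and the adjusted p of *Slc11a2*, *Slc40a1*, *Ftl1* and *Ireb2* was between 0.559 and 0.877. For *Scara5*, the differences in response were −0.33, −0.56, −0.66, −0.22 and −0.55 at the 5 later times, given as a description.

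**Figure D5:**
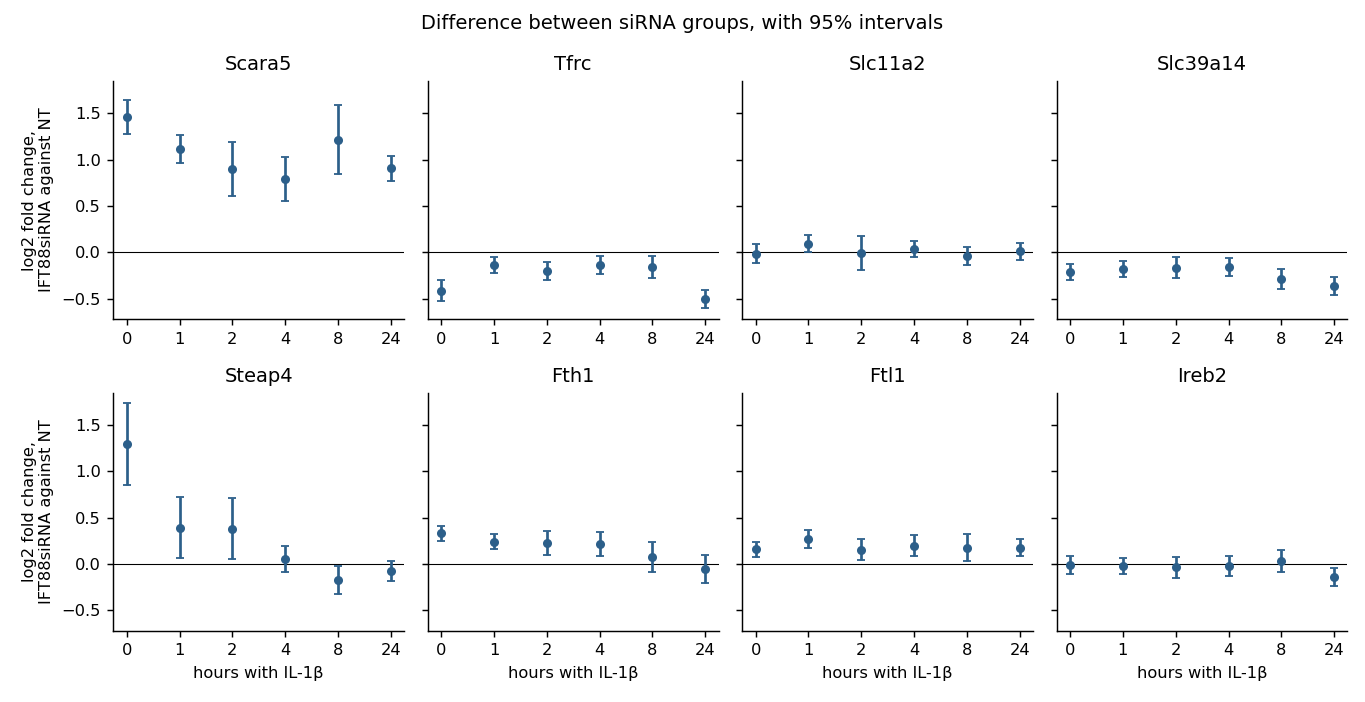
Log2 fold change of IFT88siRNA against NT (points, with 95% intervals, 3 against 3 libraries per time) at each of 6 times for the 8 members with enough counts. *Scara5* lies above 0 throughout, at 0.80 to 1.46, *Steap4* at 0 h only lies above 1, and *Slc11a2* and *Ireb2* stay within 0.14 of 0.

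Another 54 genes of iron and haem handling and of the class A scavenger receptors were listed by function, and 46 of them had enough counts in each IL-1β fit. In NT, 19 passed both thresholds at 1 or more times, and in IFT88siRNA 18 did. The shares of all genes, against which the counts of each list below stand too, were the 50.7% and 49.2% given above. In uptake and reduction of iron, 9 of 9 tested passed in NT and 5 of 9 in IFT88siRNA. Not all were rises: at 24 h 5 passed upward and 2 downward in NT, and 4 upward and 0 downward in IFT88siRNA. The falls in NT were of genes with a mean under 50 counts. *Lcn2*, or lipocalin 2, which binds iron-carrying siderophores, rose furthest of this list, from 0.503, 0.368 and 0.530 CPM at 0 h to 1306, 1197 and 1174 CPM at 24 h in NT (11.31 ± 0.17 on the log2 scale, adjusted p = 9.41e-25). In IFT88siRNA it went from 0.540, 0.351 and 0.422 to 989, 1011 and 1089 CPM, below the NT libraries at 24 h with a difference of −0.25 ± 0.059 (adjusted p = 0.0135, under 1.5-fold). At 0 h *Lcn2* had only 9 to 12 counts per library in NT and 10 to 16 in IFT88siRNA, so the size of its rise is uncertain.

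Of genes of iron export and oxidation, 4 of 7 tested passed in NT (*Cp*, *Heph*, *Hfe* and *Tmprss6*) and 6 of 7 in IFT88siRNA (the same 4 with *Bmp6* and *Erfe*). Those other than *Cp* were named after their values were seen. *Cp* encodes ceruloplasmin, which oxidises iron as it leaves the cell, and was at 43.3, 46.5 and 46.6 CPM without IL-1β and 516, 528 and 505 CPM after 24 h in NT (3.46 ± 0.063, adjusted p = 4.42e-23). In IFT88siRNA it was at 60.9, 54.3 and 57.3 and 478, 481 and 444 CPM, a rise of 2.99 ± 0.064, and the difference in response had an adjusted p of 0.000625 without reaching 1.5-fold. Of storage, delivery and sensing, 1 of 6 passed in either group: *Fbxl5*, which senses iron and marks *Ireb2* protein for breakdown, went in NT from 49.4, 52.0 and 49.3 CPM at 0 h to 226, 241 and 233 CPM at 4 h and 120.3, 124 and 129 CPM at 24 h. Its log2 change was 2.24 ± 0.047 at 4 h (adjusted p = 3.21e-22), and 2.20 ± 0.055 in IFT88siRNA. Among genes of mitochondrial iron and iron-sulphur clusters 2 of 10 passed in either group, both mitoferrins (*Slc25a37* at 1.201 and *Slc25a28* at 1.25 at 4 h in NT), and of haem synthesis and breakdown 1 of 12 in NT, *Hmox1*, which breaks haem down (1.13 at 2 h). In IFT88siRNA 3 of 12 haem genes passed, *Hmox1* and, at 8 h, the synthesis enzymes *Cpox* (0.69) and *Ppox* (−0.73). The genes of these lists other than *Fbxl5* were named after their values were seen.

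Of the class A scavenger receptors, the family of *Scara5*, *Msr1* and *Marco* had too few counts, both others (*Scara3* and *Colec12*) passed in NT and 1 of these 2 (*Scara3*) passed in IFT88siRNA. *Scara3* fell at 4 h, from 42.3, 41.8 and 41.2 CPM to 28.6, 28.5 and 24.4 CPM in NT (−0.59 ± 0.06, adjusted p = 4.74e-09) and from 55.0, 55.8 and 53.2 to 32.4, 32.1 and 27.6 CPM in IFT88siRNA (−0.83 ± 0.079, adjusted p = 2.1e-09). Without replicate 3 its NT change was −0.54, under 1.5-fold. *Scara3* did not pass between the siRNA groups, but like *Scara5* it was higher in IFT88siRNA at 0 h (means of 54.7 against 41.8 CPM) and at 24 h (41.6 against 34.4 CPM). *Colec12*, a scavenger receptor with a collectin domain, was the only one of 46 other pathway genes tested that passed between the siRNA groups, beside 5.34% of all genes tested. There *Colec12* went the opposite way to *Scara5*. At 4 h it had 307, 322 and 293 CPM in NT and 188, 219.6 and 192 CPM in IFT88siRNA (−0.64 ± 0.056, adjusted p = 8.09e-06), and the differences over the 6 times were −0.14, −0.40, −0.46, −0.64, −0.35 and −0.23. In the test of a different response, 0 of 47 pathway genes passed both thresholds with edgeR, beside 1.2% of all genes tested, and 0 with DESeq2. With edgeR, 7 had an unadjusted p under 0.05 and 3 an adjusted one. The shares of all genes under p alone are not given here, so the last counts do not set the pathway genes apart.

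Over the means of the 12 conditions, the genes whose log2 CPM followed *Scara5* most closely among 12077 with a mean of at least 50 counts were *Mcrs1* (r = 0.972), *Psmd9* (r = 0.941), *Vamp8* (r = 0.938), *Clu* (r = 0.930) and *Yipf1* (r = 0.924). *Mcrs1* averaged 65.3 and 73.8 CPM in NT, at 0 and 24 h, and 72.0 and 77.9 CPM in IFT88siRNA, whereas *Scara5* averaged 6.44 and 25.8 CPM in NT, at 0 and 24 h, and 17.7 and 48.4 CPM in IFT88siRNA. *Clu*, which encodes the secreted chaperone clusterin, averaged 48.1 and 92.4 CPM in NT, at 0 and 24 h, and 66.0 and 126 CPM in IFT88siRNA. For *Steap4* the closest were *Cd14* (r = 0.985), *Nek6* (r = 0.985), *Lcn2* (r = 0.982), *Lbp* (r = 0.981) and *Sod2* (r = 0.981). Of these, *Cd14* and *Lbp* take part in the sensing of lipopolysaccharide, and *Sod2* encodes the superoxide dismutase of mitochondria. The 12 points share the libraries and the time course, so these correlations describe similar profiles and carry no test.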

How the data were processed

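Poly(A) RNA of the 36 libraries was sequenced in paired ends over several lanes of 1 flow cell, and the lane of each library is not given. The authors aligned the reads to GRCm38 with HISAT2 (2.1.0, Ensembl annotation) and deposited raw counts per gene from featureCounts (Subread 1.6.3). The authors also deposited TPM from Salmon (0.9.1). Versions are from the submitters' processing notes. By default featureCounts ignores strand and leaves out reads that fall on several genes, which bears on *Ftl1*, *Slc11a2* and the copies of the ferritins. Columns were assigned to libraries by their titles, and there were 0 columns of another origin.

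From the counts, edgeR (4.0.16, R 4.3.3) with TMM scaling, filterByExpr and quasi-likelihood F-tests compared IFT88siRNA with NT within each time (6 libraries), each time with 0 h within each siRNA group (18 libraries), and the responses (5 terms together, 36 libraries). p-values were adjusted over all genes tested. The members and the other lists were chosen with earlier results of these data known, the other lists by function. Apart from the members, the text names pathway genes called between siRNA groups or in response, the 3 largest rises and falls in NT among called genes with a mean of at least 50 counts (1 fall met this), and the 5 genes closest to *Scara5* and *Steap4*; *Ift88* checks the labels. DESeq2 (1.42.0), limma (3.58.1) on log2(TPM + 1), other scalings and filters, a replicate block and leaving out each replicate were the alternatives. The fits were tested on simulated data. Replicates differed by more than sampling noise (chi-square per degree of freedom of 1.71 or more in the 36 replicate pairs). Intervals on fold changes are 95%. IREs were searched in GENCODE vM21 transcripts and motifs in RefSeq windows with Python (3.11.15), and figures were drawn with matplotlib (3.10.9).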

Additional observations from a re-analysis of the deposited data

Results flagged for a closer look

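The genes below had an adjusted p under 0.05 in the joint edgeR test of the siRNA by time terms (Benjamini-Hochberg adjustment), and each is given with its largest difference in response to IL-1β (IFT88siRNA minus NT, log2). For *Steap4* it was −1.45 at 8 h (adjusted p = 7.6e-05). For *Tfrc* it was 0.29 at 1 h (adjusted p = 0.000296), but without replicate 2 the adjusted p was 0.0528, and with limma on TPM the largest difference was −0.18 (adjusted p = 0.679). For *Cp*, or ceruloplasmin, it was −0.47 at 24 h (adjusted p = 0.000625), for *Fbxl5* −0.25 at 8 h (adjusted p = 0.0402) and for *Colec12* −0.49 at 4 h (adjusted p = 0.00127). Of these, the difference of *Steap4* was over 1.5-fold. The 5 terms of each gene share the 6 libraries at 0 h, where *Steap4* had 17 to 67 counts per library.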

How the results depend on the processing

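The 1 call of a member between siRNA groups (*Steap4*) became 0 with limma on log2(TPM + 1), on log2(TPM + 0.1) and on TPM with no filter, and 5 without the fold threshold. Without that threshold 2 members had a different response. Of pathway genes, the 1 call between siRNA groups ranged from 1 to 4 when a replicate was left out, was 0 on TPM with no filter and 21 without the fold threshold. The 19 calls in NT and 18 in IFT88siRNA after IL-1β became 43 and 42 without it, and the 0 calls in response ranged from 0 to 1 when a replicate was left out and became 3 without the fold threshold. The share of all genes that pass without the fold threshold is not given here, so these counts do not set the members or pathway genes apart. Other counts stayed within 1.5 times. Of 2745 values of single genes under 12 alternatives, 2619 kept their side of the thresholds (or, for the untested *Scara5*, stayed within the replicate spread), 62 fell below and 29 rose above them, 35 of *Scara5* moved by more than that spread, most of them with limma on TPM, and 0 called values changed sign. Upper-quartile scaling lowered the changes after IL-1β by 0.12 at 4 h and 0.11 at 2 h in NT (log2), which turned the sign of the uncalled 4 h values of *Tfrc* (−0.062), *Ftl1* (−0.041) and *Ireb2* (−0.0038).

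The replicate numbers did not pair the libraries: over 18 pairs of NT and IFT88siRNA libraries with the same number, deviations from the group means correlated with r from −0.23 to 0.46, over 0.1 in 7, and 7 correlated best with their own number. With the replicate block the members called between siRNA groups remained 1 and the pathway genes 1, and the rise of *Ftl1* in IFT88siRNA at 2 h was 0.58, under 1.5-fold.

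At 19337022 to 38304127 counts per library, changes in *Slc40a1*, with 1 to 12 counts per library, and in *Steap4* at 0 h are the least certain among the members.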

Other observations

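Relatives of the members also changed after IL-1β, and the genes that follow were named after their values were seen (means over 3 libraries, log2 fold change ± SE, edgeR with Benjamini-Hochberg adjustment). The other genes of the STEAP family, to which *Steap4* belongs, passed both thresholds in both siRNA groups. *Steap1*, which lacks the reductase domain of the others, went from a mean of 22.6 CPM at 0 h to 78.2 CPM at 24 h in NT (1.75 ± 0.063, adjusted p = 2.95e-17) and from 24.9 to 72.3 CPM in IFT88siRNA (1.498 ± 0.08, adjusted p = 1.42e-13). *Steap2* went from a mean of 260.1 CPM at 0 h to 489 CPM at 24 h in NT (0.87 ± 0.045, adjusted p = 5.33e-14) and from 285 to 460.3 CPM in IFT88siRNA (0.65 ± 0.046, adjusted p = 2.6e-11). *Steap3*, the ferrireductase of the transferrin cycle in red cell precursors, was early: it went from a mean of 22.0 CPM at 0 h to 41.5 CPM at 1 h in NT (0.91 ± 0.058, adjusted p = 2.82e-12) and from 26.5 to 50.1 CPM in IFT88siRNA (0.88 ± 0.11, adjusted p = 5.06e-07), had changes of 0.26 and 0.12 at 4 h, below 1.5-fold, and 0.84 and 0.74 at 8 h, past both thresholds. *Slc39a8*, the transporter ZIP8 and a close relative of *Slc39a14*, was far lower but went from a mean of 0.627 CPM at 0 h to 3.35 CPM at 8 h in NT (2.45 ± 0.25, adjusted p = 7.43e-09) and from 0.667 to 2.45 CPM in IFT88siRNA (1.87 ± 0.25, adjusted p = 7.58e-07).

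The mitoferrins, which carry iron into mitochondria, passed at 4 h, the time at which *Slc11a2* and *Fbxl5* were highest. *Slc25a37* went from a mean of 125 CPM at 0 h to 281 CPM at 4 h in NT (1.201 ± 0.13, adjusted p = 1.15e-08) and from 92.9 to 251 CPM in IFT88siRNA (1.44 ± 0.12, adjusted p = 3.64e-10). *Slc25a28* went from a mean of 31.3 CPM at 0 h to 73.2 CPM at 4 h in NT (1.25 ± 0.065, adjusted p = 1.52e-14) and from 27.9 to 65.7 CPM in IFT88siRNA (1.24 ± 0.073, adjusted p = 2.3e-13). Between the siRNA groups no gene of this paragraph or the one before it passed both thresholds at any time, and no explanation of these courses was tested.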
